A study of Mus musculus with 6 samples.

Results

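The TNF superfamily ligands examined here are 10 genes, taken by gene symbol from a table of 16244 genes measured by RNA-seq in mouse Th17 cells. They were *Tnf*, *Lta*, *Ltb*, *Fasl*, *Cd40lg*, *Tnfsf4*, *Tnfsf8*, *Tnfsf10*, *Tnfsf11* and *Tnfsf14*, and all 10 were found. The libraries came from WT cells (n = 3) and from cells labelled Mut (n = 3), whose library names carry N275D, the name of the substitution in the mutant mice. Naive CD4+ T cells of C57BL/6 background were isolated, with spleen as the labelled tissue, and were stimulated through CD3 and CD28 for 3 days under pathogenic Th17 conditions with IL-6, IL-1β and IL-23. The methods also list TGF-β, anti-IL-4 and anti-IFN-γ for these conditions, whereas the series' design text names the 3 cytokines only. Mice were 6 to 12 weeks old unless stated otherwise. The mutant mice were a knockin line provided by another laboratory. Methods state that WT mice were purchased, and the resource list gives them as the NJ substrain. Littermate controls, when applicable, are named for the transfer experiments. Which WT mice gave these libraries is not stated, so a difference of source or substrain could not be told apart from genotype. Whether the donors of these libraries were homozygous, and whether each library came from its own mouse, is not given in the sources used here, so the p-values measure the spread between these libraries, which may be technical.

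Ligands of the TNF superfamily are mostly membrane proteins that assemble as trimers and bind receptors on neighbouring cells, and several are also released from the surface. T cells make many of them after antigen receptor signalling. TNF and lymphotoxin-α are inflammatory cytokines, Fas ligand and TRAIL can kill cells that carry their receptors, and CD40 ligand, OX40 ligand, CD30 ligand and LIGHT carry co-stimulatory signals between T cells and other immune cells. RANKL is known for driving osteoclast formation, and Th17 cells are known as a source of it.

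The libraries held 17659035 to 18510878 reads on genes and so hardly differed in depth. Values are normalized reads, that is, the reads of a gene multiplied by 1 factor per library. A gene was called when limma on log2(normalized reads + 1) gave a Benjamini-Hochberg adjusted p under 0.05 over the 11908 genes whose mean reached 10, and the log2 fold changes below are N275D over WT on that scale, each with its standard error (SE). WT replicate 3 stood apart from the other WT libraries, with a median chi-square of 2.95 and 3.02 times that of counting noise in its pairs against 1.37 for WT replicates 1 and 2. The altered base cannot be seen in gene totals, so these do not check the genotype labels. Of the CD4 T and Th17 cell markers, *Il17a* (0.23), *Il17f* (0.26), *Il23r* (0.70) and *Ccr6* (0.38) were called higher in N275D cells, *Cd4* (-0.27) and *Cd3e* (-0.22) were called lower and *Cd3g* (0.04) was not called, on the log2 scale. In every library each of these 7 had at least 375 normalized reads.

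Of the 10 ligands, 4 were lower in N275D Th17 cells (*Tnf*, *Lta*, *Cd40lg* and *Tnfsf14*), 0 were higher and 6 were not called. By unadjusted p the numbers of ligands under 0.05 were also 4 and 0, and edgeR and DESeq2 likewise called 0 higher. Over all genes tested, 26.1% were called lower, 24.7% higher and 50.9% in either direction, and 4 of 10 is to be read against these shares. With at least 2-fold added, *Tnfsf14* was called, against 0.857% of all genes called lower and 3.59% called in either direction at that size. For the 4 lower ligands every N275D library lay below every WT library, and for the other 6 the genotypes overlapped, where 57.7% of all genes tested did not overlap. The median log2 fold change was -0.08 over the 10 ligands and -0.0026 over all genes tested. In bulk RNA, fewer cells that make a transcript and less transcript per cell cannot be told apart.

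**Figure D1:**
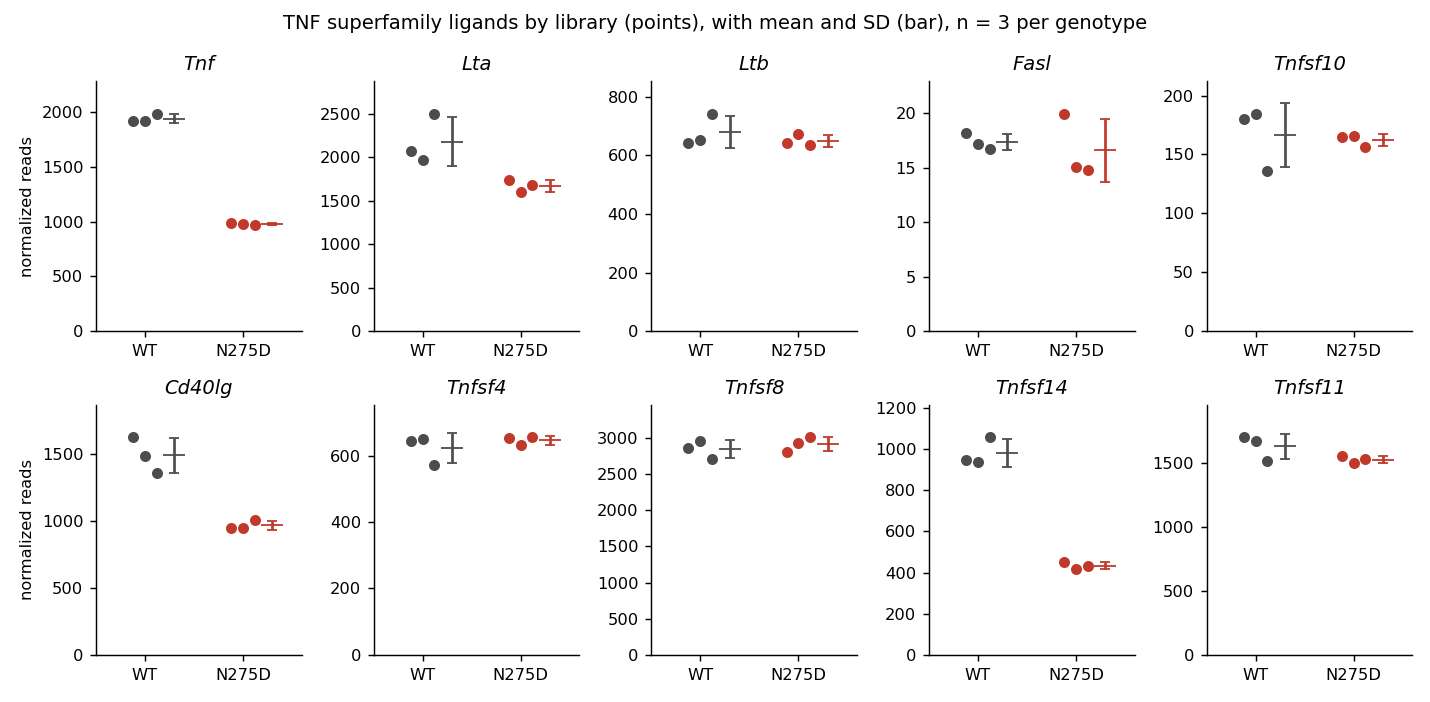
Normalized reads (vertical axes, each from 0) of the 10 ligands in the 3 WT (grey) and 3 N275D (red) libraries, with the mean and SD beside the points. *Tnf*, *Lta*, *Cd40lg* and *Tnfsf14* show WT points that all lie above the N275D points, and the other 6 overlap.

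The ligand genes are spread over 6 chromosomes (GRCm38), and 4 of them lie on chromosome 17. *Ltb* (35194507 to 35196305, plus strand), *Tnf* (35199367 to 35202007, minus strand) and *Lta* (35203165 to 35205578, minus strand) stand side by side in the major histocompatibility complex, with gaps of 3061 and 1157 bases. *Tnfsf14* (57189474 to 57194181, minus strand) lies elsewhere on the chromosome, next to the ligand genes *Cd70* and *Tnfsf9*. The 250 bases before the transcript start that the promoter table gives for these 4 genes are printed to show the regulatory sequence of the ligand that fell most (*Tnfsf14*) and of 3 neighbours whose log2 fold changes lay apart. The sequences are credited to RefSeq, build GRCm38.p6, and the promoter table used here had entries for 8 of the 10 ligands. *Cd40lg*, which was called lower, and *Tnfsf4* had no entry, nor did *Cd70* and *Tnfsf9*, so their promoters were not searched. For *Lta* and *Tnfsf8* the start in that table (35205351 and 63861284) lies inside the gene's full extent, so that 227 and 224 of the 250 bases fall within the gene as positioned above for *Lta* and at 63831202 to 63861508 on chromosome 4 for *Tnfsf8*. The other 6 windows end where the gene begins. Capitals mark every match, on either strand, to the letters searched, which were GGAAA (the core bound by NFAT), TGANTCA (AP-1), the 10-letter NF-kB motif, GCGNGGGCG (EGR) and ACGTG (HIF).
*Tnf*, chr17:35202008-35202257, minus strand: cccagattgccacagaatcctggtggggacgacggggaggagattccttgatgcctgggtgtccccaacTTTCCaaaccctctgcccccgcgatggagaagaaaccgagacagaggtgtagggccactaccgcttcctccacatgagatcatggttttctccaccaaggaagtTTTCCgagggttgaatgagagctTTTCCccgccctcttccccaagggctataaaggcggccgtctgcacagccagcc
*Lta*, chr17:35205352-35205601, minus strand: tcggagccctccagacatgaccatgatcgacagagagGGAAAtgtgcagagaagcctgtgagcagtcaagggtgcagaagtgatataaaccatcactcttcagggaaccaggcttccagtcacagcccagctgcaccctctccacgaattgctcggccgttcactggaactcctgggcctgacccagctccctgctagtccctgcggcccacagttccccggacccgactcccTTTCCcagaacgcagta
*Ltb*, chr17:35194257-35194506, plus strand: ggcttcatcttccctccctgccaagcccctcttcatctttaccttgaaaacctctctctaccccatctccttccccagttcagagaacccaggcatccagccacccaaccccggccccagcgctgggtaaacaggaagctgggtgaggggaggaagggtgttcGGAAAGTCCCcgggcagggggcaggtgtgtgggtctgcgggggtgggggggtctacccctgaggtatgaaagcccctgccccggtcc
*Tnfsf14*, chr17:57194182-57194431, minus strand: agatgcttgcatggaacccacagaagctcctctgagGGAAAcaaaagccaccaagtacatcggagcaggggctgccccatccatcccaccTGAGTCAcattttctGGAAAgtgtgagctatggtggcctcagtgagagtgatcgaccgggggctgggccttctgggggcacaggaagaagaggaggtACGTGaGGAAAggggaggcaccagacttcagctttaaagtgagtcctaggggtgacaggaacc

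GGAAA occurred at least once in all 8 windows, and also in 55.6% of the 32851 promoters of the same length. Among promoters of the genes tested its share was 53.8%. *Tnf* and *Tnfsf14* each had 3 matches, *Lta* and *Fasl* had 2, and *Ltb*, *Tnfsf8*, *Tnfsf10* and *Tnfsf11* had 1. How many of all promoters hold 3 or more matches was not counted. The TGANTCA match (6.75% of all promoters) and the ACGTG match (16.6%) were seen in *Tnfsf14* alone among the 8. In promoters of the genes tested these shares were 4.33% and 21.9%. The NF-kB match (4.11%, and 4.77% for the genes tested) was seen in *Ltb* alone, where it overlaps the GGAAA match. GCGNGGGCG, present in 4.70% of all promoters and in 8.71% of those of the genes tested, did not occur in these windows. A match describes letters only, and binding was not measured.

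*Tnf* is the founding member of the family, a cytokine that activates endothelium, macrophages and T cells themselves. It had 1922, 1915 and 1985 normalized reads in the 3 WT libraries, and 983, 977 and 974 in the 3 N275D libraries. The replicates of each genotype lay close together and far from those of the other. The means were 1940.5 ± 38.8 and 978 ± 4.86 (SD, n = 3 each), so that the mutant level was 50.4% of the WT level. The log2 fold change was -0.99 (SE 0.04, adjusted p = 3.09e-11), just short of 2-fold. These are RNA values of cultured cells, and protein was not measured in these libraries. By flow cytometry the authors report increased TNF-α in N275D Th17 cells from the lamina propria in transfer colitis, which is the other direction. That is protein in cells from another setting, and the difference was not tested here.

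*Lta* encodes lymphotoxin-α, which is secreted as a homotrimer that binds the TNF receptors, or held at the surface by lymphotoxin-β. It had 2076, 1963 and 2499.9 normalized reads in WT and 1733, 1601 and 1679 in N275D libraries. WT replicate 3 was the highest of the 6, and the genotypes did not overlap. The means were 2179.7 ± 283 and 1671 ± 66.3 (SD, n = 3 each). On the log2 scale the change was -0.38 (SE 0.07, adjusted p = 0.000245). Without WT replicate 3 the fold change was -0.27, and the gene was still called.

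*Ltb*, the third gene of the cluster, encodes lymphotoxin-β, the membrane partner of lymphotoxin-α in organising lymphoid tissue. It had 643, 651 and 742 normalized reads in WT and 642, 672 and 634 in N275D libraries. The genotypes overlapped, and the log2 fold change of -0.06 (SE 0.06, adjusted p = 0.442) had a 95% interval from -0.19 to 0.07. That interval does not reach the value of *Tnf*.

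Whether the 3 neighbours differed in their change was tested on the log2 ratio of each pair within a library. The *Tnf* to *Lta* ratio was -0.16 ± 0.15 in WT and -0.77 ± 0.05 in N275D cells on the log2 scale (SD, n = 3 each), a difference of -0.61. For *Tnf* to *Ltb* the difference was -0.93, from 1.52 ± 0.09 to 0.59 ± 0.04, and for *Lta* to *Ltb* it was -0.32, from 1.68 ± 0.08 to 1.36 ± 0.10. In each of the 3 pairs the genotypes did not overlap. The two-sided exact permutation p was 0.1 for each, also after adjustment over the 3 pairs, which is the smallest that 3 libraries against 3 can give. The test thus could not decide whether the neighbours differed. The 3 ratios share genes, and how often other gene pairs separate by genotype was not counted.

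An AU-rich element in the 3' UTR, to which proteins such as tristetraprolin bind to speed decay, is a known feature of *Tnf* mRNA. The 9 letters TTATTTATT, searched on the transcribed strand of the longest annotated 3' UTR (GENCODE M21), occurred 5 times in *Tnf*, 1 time in *Lta* and not in the other 8 ligands. At least 1 occurrence was found in 7.66% of 21022 protein-coding genes and 3 or more in 0.671%. The stretch of 30 bases with most occurrences is printed for both genes, with the letters found in capitals, since no other ligand holds these letters.
*Tnf* 3' UTR, chr17:35199679-35199708, minus strand: aTTATTTATTATTTATTTATTATTTATTta
*Lta* 3' UTR, chr17:35203404-35203433, minus strand: tatggagagaaaagttaagTTATTTATTta

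*Cd40lg* and *Tnfsf14*, which fell, had no such letters in UTRs of 455 and 1019 bases. The 9 letters were also not found in *Cd70* and *Tnfsf9*, 2 further ligands described below, which were lower as well. Their UTRs hold only 78 and 253 bases, so an absent match says little there. The shorter letters ATTTA occurred 8 times in *Tnf*, 3 in *Lta*, 2 in *Cd40lg* and 1 in *Tnfsf14*. Among ligands not called they occurred 10 times in *Tnfsf8*, 8 in *Tnfsf10*, 6 in *Tnfsf11*, 2 in *Tnfsf4*, 1 in *Fasl* and 0 in *Ltb*. These counts were not scaled by UTR length, and a part of decay in the changes was not tested.

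*Cd40lg* (chromosome X, 57212143 to 57224042) encodes CD40 ligand, the signal by which helper T cells license B cells and dendritic cells. It had 1622, 1484 and 1356 normalized reads in WT and 947, 943 and 1005 in N275D libraries. All WT values exceeded all N275D values, with more spread in WT. The means of 1487 ± 133 and 965 ± 34.8 (SD, n = 3 each) gave a log2 fold change of -0.62 (SE 0.06, adjusted p = 3.71e-07), or 64.9% of the WT level.

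*Tnfsf14* encodes LIGHT, which co-stimulates T cells through HVEM and also binds the lymphotoxin-β receptor. It had 948, 936 and 1056 normalized reads in WT and 452, 418 and 431 in N275D libraries. Of the 10 ligands it changed most, to 44.3% of the WT level, and the genotypes were well apart. The means were 979.9 ± 66.1 and 434 ± 17.2 (SD, n = 3 each). This made a log2 fold change of -1.17 (SE 0.06, adjusted p = 2.35e-10).

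The other two co-stimulatory ligands were not called. *Tnfsf8*, which encodes CD30 ligand, had 2866, 2953 and 2706 normalized reads in WT and 2812, 2923 and 3008 in N275D libraries. Its log2 fold change of 0.04 (SE 0.04, adjusted p = 0.501) had a 95% interval from -0.05 to 0.13. *Tnfsf4* (chromosome 1, 161395438 to 161418206), which encodes OX40 ligand, is best known from antigen-presenting cells. It had 645, 651 and 571 normalized reads in WT and 653, 631 and 655 in N275D libraries. WT replicate 3 was the lowest of the 6, and the log2 fold change was 0.06 (SE 0.06, adjusted p = 0.457, 95% interval from -0.07 to 0.19).

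*Tnfsf11* (chromosome 14, 78277446 to 78308043) encodes RANKL. It had 1701, 1673 and 1518 normalized reads in WT and 1552, 1497 and 1528 in N275D libraries. WT replicates 1 and 2 were the highest, and WT replicate 3 lay among the N275D values. The log2 fold change was -0.09 (SE 0.05, adjusted p = 0.121, 95% interval from -0.20 to 0.01). Without WT replicate 3, the library that stood apart, it was -0.15 with an adjusted p of 0.00352, so that whether *Tnfsf11* is called rests on that library, and the number of ligands called lower is then 5.

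The death ligands were the lowest of the 10. *Tnfsf10* (chromosome 3, 27317077 to 27339665), which encodes TRAIL, had 179.7, 185 and 136 normalized reads in WT and 165, 166 and 156 in N275D libraries. WT replicate 3 was the lowest and the other WT libraries the highest, so the N275D values fell between them. The log2 fold change was -0.03 (SE 0.11, adjusted p = 0.861), with a 95% interval from -0.26 to 0.21. *Fasl* (chromosome 1, 161780691 to 161788495), the ligand of Fas, had 18.2, 17.1 and 16.7 normalized reads in WT and 19.97, 15.05 and 14.8 in N275D libraries. These values rest on 15 to 20 reads per library. The log2 fold change of -0.07 (SE 0.25, adjusted p = 0.836) had a 95% interval from -0.60 to 0.46, so a change within these bounds was not detectable at this depth.

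**Figure D2:**
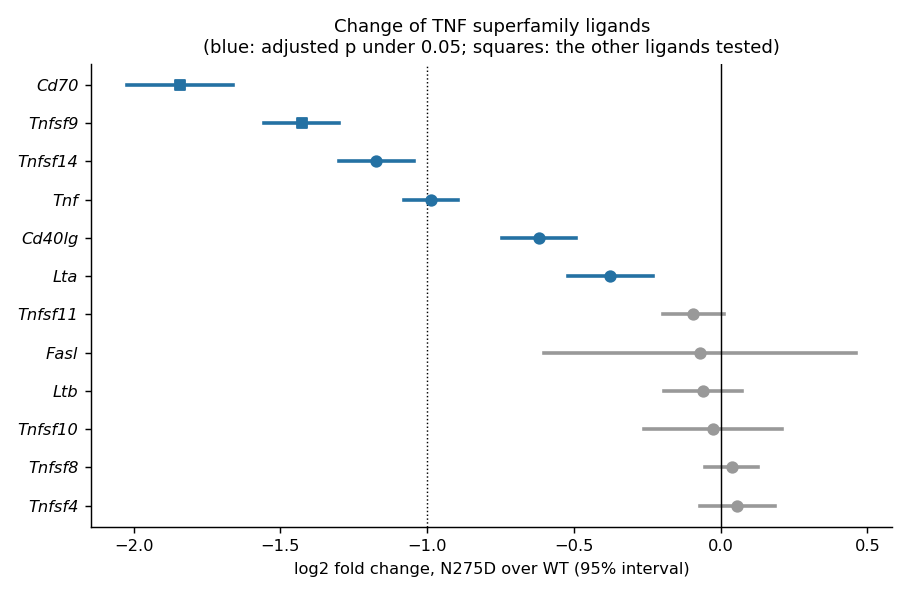
Log2 fold change of N275D over WT (horizontal axis) with its 95% interval for the 10 ligands (circles) and the 2 other TNF superfamily ligands tested (squares), with a dotted line at 2-fold lower. Intervals of the called genes (blue) lie wholly below 0, from *Lta* at -0.38 to *Cd70* at -1.84, and those of the other 6 ligands (grey) include 0.

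Levels of different genes were compared as RPKM, the reads divided by the length of the merged exons and by the library's reads on genes. In WT cells *Lta* was the highest at 87.0 ± 11.01 (SD, n = 3), followed by *Cd40lg* at 65.7 ± 6.08 and *Tnf* at 65.4 ± 1.10, whose libraries overlapped. *Tnfsf8* (41.2 ± 1.93) and *Tnfsf11* (40.3 ± 2.57) came next and also overlapped. *Tnfsf14* (29.3 ± 1.88), *Ltb* (24.7 ± 1.92) and *Tnfsf4* (18.6 ± 1.39) followed in this order without overlap. *Tnfsf10* at 1.75 ± 0.288 and *Fasl* at 0.494 ± 0.0228 were far below all others.

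In N275D cells *Lta* again had the highest level, 68.3 ± 2.77, ahead of *Cd40lg* (43.7 ± 1.63) and *Tnfsf8* (43.3 ± 1.48), which overlapped. *Tnf* at 33.7 ± 0.163 now stood below *Tnfsf11* at 38.6 ± 0.740, and *Tnfsf14* at 13.3 ± 0.534 below both *Ltb* (24.2 ± 0.717) and *Tnfsf4* (19.8 ± 0.431). Within the 10 ligands added up on this scale, *Tnf* made up 17.5% ± 0.223 in WT and 11.8% ± 0.174 in N275D cells, and *Tnfsf14* 7.82% ± 0.410 and 4.62% ± 0.147 (SD, n = 3 each). The share of *Tnfsf8* was 11.02% ± 0.695 in WT and 15.1% ± 0.534 in N275D cells, with a level that was not called different, because the total was smaller. That total lay between 367 and 379 in the WT libraries and between 282 and 290.4 in the N275D libraries.

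**Figure D3:**
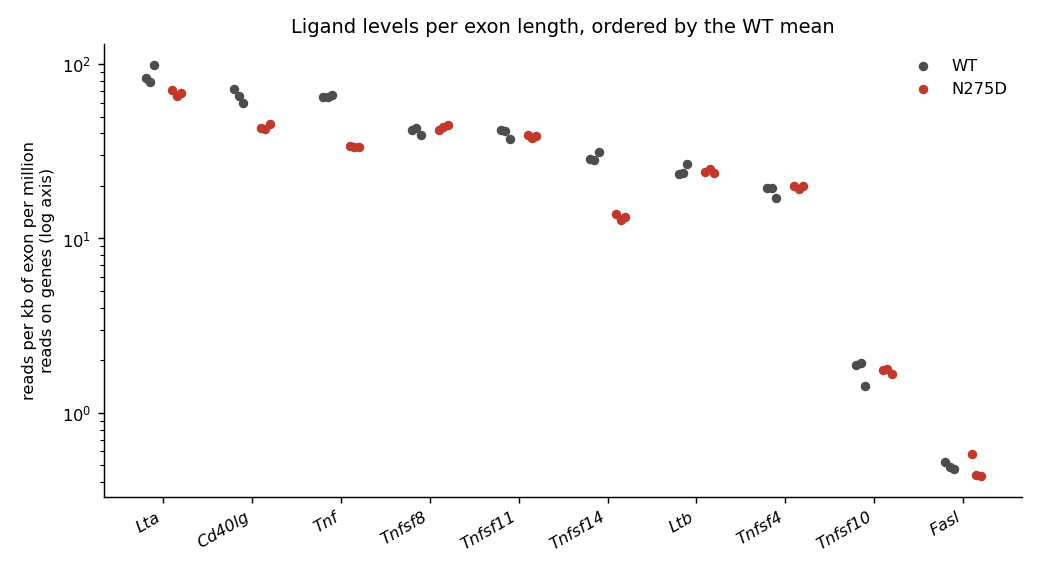
RPKM (vertical log axis) for the 10 ligands in each WT (grey) and N275D (red) library, ordered by the WT mean. The levels span from 0.494 for *Fasl* to 87.0 for *Lta* in WT, and *Tnf* and *Tnfsf14* drop below genes that they exceed in WT.

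Of 8 further ligands of the superfamily, 2 reached a mean of 10 and were tested, and both were lower at 2-fold or more, as were 0.857% of all genes tested. *Cd70*, which encodes the ligand of CD27, had 433, 463 and 533 normalized reads in WT and 131, 128 and 136 in N275D libraries. Its log2 fold change was -1.84 (SE 0.09, adjusted p = 5.84e-11), or 27.7% of the WT level. *Tnfsf9*, which encodes 4-1BB ligand, had 706, 686 and 712 normalized reads in WT and 254, 258 and 269 in N275D libraries, a log2 fold change of -1.43 (SE 0.06, adjusted p = 2.37e-11). An exon of *Tnfsf9* overlaps the antisense gene *Gm11110*, and how the counting used strand is not given in the sources used here. The other 6 (*Tnfsf12*, *Tnfsf13*, *Tnfsf13b*, *Tnfsf15*, *Tnfsf18* and *Eda*) had at most 8.98 normalized reads in any library.

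*Cd70* and *Tnfsf9* are the neighbours of *Tnfsf14* on chromosome 17, with 39.7 kb between *Cd70* and *Tnfsf14* and 38.2 kb between *Tnfsf9* and *Cd70*. The protein-coding genes on either side, named after their values were seen, were not called: *Tubb4a*, which encodes a tubulin, had a log2 fold change of 0.27 (adjusted p = 0.176) and *C3*, the complement component, of -0.22 (adjusted p = 0.218). Beside the other cluster, *Nfkbil1* was not called either (0.07, adjusted p = 0.438), and *Lst1* had at most 7.02 normalized reads and was not tested.

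**Figure D4:**
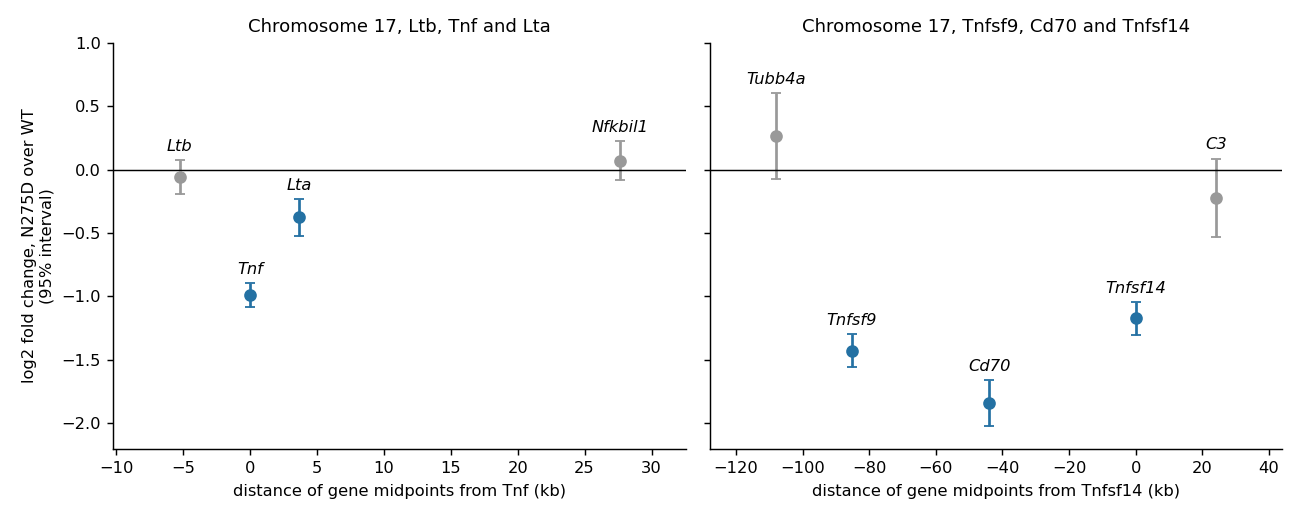
Log2 fold change of N275D over WT with its 95% interval (vertical axis) against the distance of gene midpoints in kb from *Tnf* (left) and from *Tnfsf14* (right), with called genes in blue and others in grey. *Tnf* and *Lta* lie below 0 while *Ltb* beside them includes 0, and *Tnfsf9*, *Cd70* and *Tnfsf14* all lie below -1.

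Of 13 receptors and decoys listed, 12 were tested, of which 4 were called lower, 1 higher and 7 not at all, with a median log2 fold change of -0.06. That share of calls lies near the background of 50.9% of all genes tested. *Tnfrsf1a* and *Tnfrsf1b*, the receptors of TNF and lymphotoxin-α, both had a log2 fold change of -0.01, with adjusted p = 0.887 and 0.870. *Tnfrsf14*, the HVEM receptor of LIGHT, was at -0.17 (SE 0.06, adjusted p = 0.0162), and was not called without N275D replicate 2 (adjusted p = 0.0585) or by DESeq2 (adjusted p = 0.0621). *Cd40*, the receptor of CD40 ligand, was at -0.21 (adjusted p = 0.175), and is low in these cells with 68.2 to 94.3 normalized reads.

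*Fas* and *Tnfrsf10b*, which receive the death signals, fell, and their ligands were not called. *Fas* had 579 ± 59.6 normalized reads in WT and 358 ± 5.34 in N275D cells (SD, n = 3 each), which differed by -0.69 on the log2 scale (SE 0.07, adjusted p = 1.19e-06). *Tnfrsf10b*, the receptor of TRAIL, had 1019.9 ± 29.4 and 669 ± 30.8, a log2 fold change of -0.61 (SE 0.05, adjusted p = 1.29e-07), while its decoys *Tnfrsf22* (-0.09) and *Tnfrsf23* (0.10) were not called. *Tnfrsf4*, which encodes OX40, had a log2 fold change of -0.21 (SE 0.04, adjusted p = 0.000625), and *Tnfrsf8*, which encodes CD30, was not called (-0.03, adjusted p = 0.572). *Tnfrsf11a*, the signalling receptor of RANKL, had at most 7.86 normalized reads and was the 1 receptor not tested. *Tnfrsf11b*, the decoy of RANKL, had a log2 fold change of 0.33 and was not called (adjusted p = 0.0866).

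*Ltbr*, the lymphotoxin-β receptor, was the receptor called higher, with 10.1, 10.1 and 12.8 normalized reads in WT and 28.0, 18.1 and 17.8 in N275D libraries. The log2 fold change was 0.87 (SE 0.28, adjusted p = 0.0158). Without N275D replicate 1, its highest library, it was 0.67 with an adjusted p of 0.105, and quantile normalization and DESeq2 did not call it either (adjusted p = 0.0648 and 0.0665).

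Further along the pathway changes were small. Of 15 adaptors and signal transducers, 3 were higher and 5 lower, with log2 fold changes between -0.34 and 0.26, and this share too is near the 50.9% of all genes. *Traf6*, an adaptor of NF-kB signalling, rose by 0.26, and *Casp8* and *Cflar*, the protease of the death receptor complex and its inhibitor, rose by 0.15 each. *Casp8* was no longer called when WT replicate 1 was left out (adjusted p = 0.0508) or when N275D replicate 3 was (adjusted p = 0.0594). *Cyld*, a deubiquitinase that restrains NF-kB, fell by 0.34, *Traf5* fell by 0.27 and the inhibitor of apoptosis *Birc3* fell by 0.21. *Traf5* was not called by DESeq2 (adjusted p = 0.0643) or without N275D replicate 2 (adjusted p = 0.0545). Of 6 proteins that release or process the ligands, 2 were lower, against 26.1% of all genes, namely the intramembrane protease *Sppl2b* (-0.44, adjusted p = 6.41e-06) and *Adam17*, the protease that sheds TNF (-0.21, adjusted p = 0.00137).

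Of 10 factors that bind and destabilise or stabilise mRNAs, 7 were lower and 1 higher, with a median of -0.16, where 26.1% of all genes were lower and 24.7% higher. With quantile normalization 4 were lower. *Zfp36*, which encodes tristetraprolin, had 709.6 ± 59.6 normalized reads in WT and 558 ± 27.0 in N275D cells (SD, n = 3 each), a difference of -0.34 on the log2 scale (adjusted p = 0.000439). Its relative *Zfp36l1* (-0.56) and the RNase gene *Zc3h12a* (-0.47) fell as well, and *Rc3h2*, which encodes a roquin, rose by 0.48.

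Many of the ligands are induced by T cell receptor signalling, so a list of 20 other genes known to be induced by it is given beside them. Of these, 16 were lower and 4 higher, with a median log2 fold change of -0.42, beside 26.1% and 24.7% of all genes tested. This list was chosen by hand with earlier results of these data known, so its counts are descriptive. *Il2*, a T cell growth factor, fell most (-2.27), with means of 10361 ± 262 in WT and 2142 ± 69.4 in N275D cells (SD, n = 3 each). *Egr3* (-1.55) and *Nfatc1* (-1.07), which encode transcription factors activated by this signal, followed, whereas *Dusp5*, a phosphatase of ERK (0.75), *Jun* (0.60) and *Myc* (0.17) rose. How far this list and the ligands move by a shared signal was not tested.

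**Figure D5:**
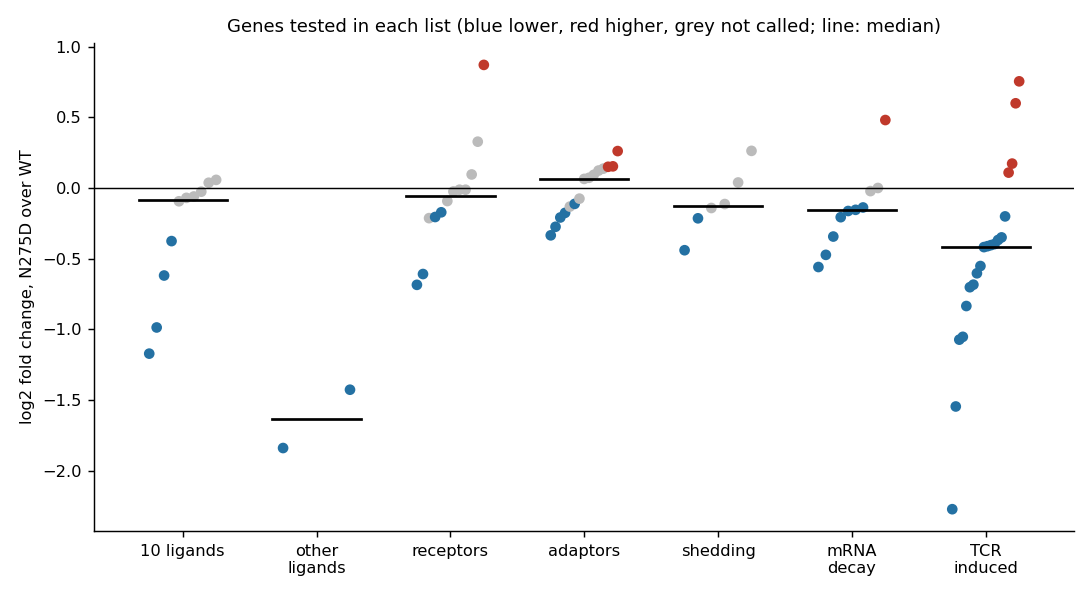
Log2 fold change of N275D over WT (vertical axis) of each gene tested in the 7 lists, with lower calls in blue, higher calls in red, genes not called in grey and the list median as a line. The 10 ligands span -1.17 to 0.06, the adaptors stay between -0.34 and 0.26, and the genes induced by the T cell receptor (TCR) reach -2.27.

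Markers of other cells that could be present were read as whole lists, and their counts of higher genes stand beside 24.7% of all genes tested. B cell markers summed to between 159 and 170.5 normalized reads in WT and between 243 and 293 in N275D libraries, and 4 of the 5 tested of 6 were higher, while *Ms4a1* was at 0 in 2 WT libraries and at most 9.88. Myeloid and dendritic cell markers, of which 8 of 10 were found, summed to between 120.1 and 130.1 in WT and between 148 and 181 in N275D libraries, with 2 of 4 tested higher and 1 lower. For natural killer and CD8 T cells, 5 of 6 markers were found, which summed to between 201 and 216 in WT and between 284 and 325 in N275D libraries, with 3 of 4 tested higher. *Sox13* was the 1 gamma delta T cell marker of 5 that was found and was higher, and both regulatory T cell markers were not called. The sums of the B cell, the myeloid, and the natural killer and CD8 T cell lists were thus higher in N275D cells. *Tnf*, *Lta*, *Cd40lg* and *Tnfsf14* were lower there, and the part of such cells in the ligand values was not tested.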

How the data were processed

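RNA-seq libraries of WT (n = 3) and N275D (n = 3) Th17 cells were analysed, grouped by their titles. Before deposit, the authors trimmed their reads, ran STAR against mm10 and counted reads per gene with featureCounts, with versions and strand setting not given in the sources used here. The deposited signal values are read counts per gene that the authors multiplied by 1 factor per library, since 100% of the values in each library were whole multiples of that factor within 1e-06, and the reads recovered in this way were used for the count-based alternatives. Columns with the authors' own log2 comparison, its q-values and the group averages were left aside. Methods name DNBSEQ strand-specific libraries and the labels another directional kit.

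Values were put on the scale log2(normalized reads + 1), and the 11908 of 16244 genes with a mean of at least 10 were tested with limma, version 3.58.1 under R 4.3.3, using a trended prior and no block. P-values were adjusted over all genes tested. The fit was checked on simulated data in which changed genes differed by at least 2-fold and all libraries had the same spread. Smaller changes and a library that stands apart were not covered by that check. The log2 ratios of neighbouring ligands were compared by a two-sided exact permutation test over libraries. Replicates differed by 1.32 to 3.02 times counting noise and were kept apart. Positions and promoters are from RefSeq (GRCm38.p6, which is mm10), and exons and UTRs from GENCODE M21 on the same build. The ligands, gene lists and tests were chosen with earlier results of these data known. All 10 ligands are named, and of the other lists at most the 3 called genes with the largest change per direction. Also named are the genes beside the clusters, which were added after their values were seen, and the listed receptors of the 10 ligands. The receptors of *Cd70* and *Tnfsf9* were not on that list. Alternatives were TMM and quantile scaling, pseudocounts of 0.1 and 10, other filters, no trend, library weights, the replicate block, edgeR (version 4.0.16), DESeq2 (version 1.42.0) and leaving out each library. The level of 1 gene, and a marker sum and a motif that involve it, are not reported here.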

Additional observations from a re-analysis of the deposited data

How the results depend on the processing

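Over the 17 alternatives the number of ligands called lower was 4, except with library weights and without WT replicate 3, where *Tnfsf11* was added (-0.13 and -0.15) and it was 5, and 0 were called higher under any of them. The log2 fold change of *Tnf* lay between -0.997 and -0.95, of *Tnfsf14* between -1.20 and -1.12, of *Cd40lg* between -0.68 and -0.56 and of *Lta* between -0.45 and -0.27, with the highest adjusted p for *Lta* at 0.0223. The differences in change between *Tnf*, *Lta* and *Ltb* kept their sign under all pseudocounts and left-out libraries.

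The number of genes called at 2-fold was 427 and became 259 with a pseudocount of 10, 703 with all genes with a mean above 0 and 162 with a minimum mean of 100, where low genes are shrunk, added or removed. Receptors called higher (1) became 0 with quantile normalization, a minimum mean of 100 and DESeq2, 2 without a trend, and 0 to 1 with a library left out. Adaptors called higher (3) became 5 with quantile normalization and with library weights, and those called lower (5) became 3 without a trend and 2 to 6 with a library left out. Of the shedding genes, 1 was called higher and 4 lower with library weights, and 0 to 1 higher with a library left out. The mRNA decay factors called lower (7) became 4 with quantile normalization. The cause of these shifts was not tested.

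The replicate numbers did not pair the libraries: deviations from the genotype means correlated at -0.05, 0.04 and -0.08 across genes for replicates 1, 2 and 3, and WT replicate 1 correlated best with N275D replicate 3 (0.08). With the replicate number as a block, 5727 genes were called in place of 6056, 428 at 2-fold, and 4 ligands lower. Among the ligands, receptors and pathway genes named above, the calls of *Casp8*, *Traf5*, *Tnfrsf14* and *Ltbr* were each lost under at least 1 alternative, and those of *Tnfsf11*, *Cd40* and *Tnfrsf11b* were gained. Calls of list members that are not named also changed, as the counts show. Of the values computed under alternatives, 976 kept their side of the threshold or stayed within 1.5 times. A change of sign in a gene called by the main fit or by the alternative occurred 0 times. Ligands that were not called did change sign. The log2 fold change of *Ltb* lay between -0.10 and 0.005, and of *Fasl* between -0.30 and 0.001. That of *Tnfsf10* lay between -0.17 and 0.05, and of *Tnfsf4* between -0.004 and 0.09. Depth limits *Fasl*, at 15 to 20 reads per library, and *Ltbr*.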
